A study of Mus musculus with 47 samples.

Results

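The genes described here are Ehhadh, Hsd17b4, Acaa1a, Acaa1b, Abcd2, Abcd3 and Pex11a, a set of peroxisomal fatty acid oxidation genes of the mouse. They were chosen by name, and are 7 of the 26608 gene symbols counted in each tissue. All 7 passed the filter on low counts in each of 4 tissues: interscapular brown adipose tissue (BAT), inguinal white adipose tissue (IWAT), liver and gastrocnemius muscle. The tissues came from male C57BL/6J mice that ate a methionine-restricted (MR) diet (6 mice) or a control diet (6 mice) without limit for 11 weeks from 5 weeks of age. The strain, sex, housing at 23 °C and a fast of 5 h before the tissues were taken were the same on both diets, and the labels name no transgene or drug. Methionine is an essential amino acid, and the question was which transcripts differ between the diets in each tissue. Each tissue has 6 libraries per diet, except gastrocnemius, which has 5 MR libraries and 6 control libraries, 47 libraries in all. Libraries are named here by diet and animal number, as in MR3101 and CON3106.

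Peroxisomes shorten very long-chain, dicarboxylic and branched fatty acids, which mitochondria handle poorly. Transporters of the ABC family bring the acyl-CoA esters in, an acyl-CoA oxidase makes the first double bond and passes electrons to oxygen, a bifunctional enzyme adds water and oxidises the product, and a thiolase releases acetyl-CoA. In rodent liver much of this pathway is a classical target of the nuclear receptor PPAR alpha. Abcd2 and Abcd3 are transporters, Ehhadh and Hsd17b4 are the L- and D-bifunctional enzymes, Acaa1a and Acaa1b are thiolases, and Pex11a takes part in the elongation and division of the organelle.

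The libraries were made by serial analysis of gene expression (SAGE), in which a short tag next to a CATG site near the 3′ end stands for each transcript. A gene's count therefore does not grow with transcript length, and levels are given as CPM, the count scaled to a library total of 1000000. The tags are shown because the method counts genes by tags of this kind and because Acaa1a and Acaa1b are near-identical copies. The 27 bases from the CATG nearest to the 3′ end of the longest annotated transcript are printed 5′ to 3′, with the anchoring CATG in capitals. They come from GENCODE vM1 transcripts, and the labels do not say which tags were assigned to each gene. Abcd2 and Pex11a each have 2 distinct tags of this kind among their annotated transcripts, and only that of the longest transcript is shown.
Abcd2: CATGagtctgacgccgtgttcacccta
Abcd3: CATGtctccttagcaaacttgtgtact
Ehhadh: CATGtcatatggatgtggatataaaat
Acaa1a: CATGggacaccctggttgcaaagccat
Acaa1b: CATGaatggtggatgtgatgggcacag
Pex11a: CATGtctactaagtggaaatgagaact

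All 6 lie in 3′ untranslated regions, while the Hsd17b4 tag, which is not shown, lies in the coding sequence. Acaa1a and Acaa1b share 96.55% of their 1275 coding bases, but their tags differ at 19 of 27 positions. None of the 7 tags had an exact copy in the tag of another annotated gene, and the nearest other tag had at least 7 mismatches. On GRCm38, RefSeq places Acaa1b on chromosome 9 from 119148043 to 119157093 and Acaa1a on the same chromosome from 119341028 to 119350296. Abcd2 is on chromosome 15 (91145871 to 91192007), Abcd3 on chromosome 3 (121758904 to 121815302) and Ehhadh on chromosome 16 (21761285 to 21787834). Hsd17b4 is on chromosome 18 (50128201 to 50196270) and Pex11a on chromosome 7 (79735957 to 79743131).

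Library totals ran from 4887004 to 13117537 counts, and for a gene with no tag the upper limit, 3 counts, was 0.229 to 0.614 CPM depending on the library and covers counting error only. The labelled tissues carried their markers, with summed hepatocyte markers of 104769 to 230418 CPM in liver and summed muscle markers of 121096 to 174361 CPM in 10 of the 11 gastrocnemius libraries. 4 libraries stood apart from their tissue. IWAT MR3116, CON3106 and CON3115 had median rank correlations of 0.798, 0.786 and 0.849 with the other IWAT libraries, and gastrocnemius MR3101 had 0.740, with 16619 CPM of muscle markers. Results that rest on these libraries are given with and without them.

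Abcd2 passed the test for diet in BAT and was lower in MR mice. It encodes a transporter of very long-chain and polyunsaturated acyl-CoA. Abcd2 measured 68.9, 54.3, 51.5, 41.3, 64.8 and 43.1 CPM in the MR libraries of BAT, against 114, 227, 149.5, 133, 137 and 102 CPM in the control libraries. The ranges did not overlap, as for 1.97% of tested genes in BAT, and every MR library was below every control library. The means were 54.0 ± 11.2 CPM in MR BAT and 144 ± 44.4 CPM in control BAT (SD, n = 6 each). The log2 fold change was -1.31 ± 0.18 (SE; fold 0.402; edgeR quasi-likelihood F test, adjusted p = 0.00323). In whole tissue, fewer cells that express a gene and less RNA per cell cannot be told apart. Abcd2 was the 1 member called in BAT, where 1.11% of the 10791 tested genes were called and 0.537% were called lower. With each library left out in turn the log2 fold change stayed between -1.39 and -1.17, with adjusted p from 0.00408 to 0.0131. The diet contrast from a single fit of all 47 libraries gave -1.29 with adjusted p = 0.144, which ends the call.

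Markers of several cell types moved with the diet in BAT. The white adipocyte markers summed to 17.1 to 33.4 CPM in MR BAT and 20.01 to 164 CPM in control BAT. 5 of the 8 markers were tested, all 5 had lower fitted levels in MR mice, and 1 of them, the leptin gene Lep, was called (log2 fold change -2.46, adjusted p = 0.0318). Hoxc9 and Tcf21 were at 0 in all 6 MR libraries and in 5 of the 6 control libraries. The macrophage markers summed to 32.3 to 47.4 CPM in MR BAT and 49.8 to 240 CPM in control BAT, with no overlap, and 7 of the 7 tested had lower fitted levels in MR mice, with 0 called. The brown adipocyte markers summed to 5396 to 9635 CPM in MR BAT and 4096 to 6835 CPM in control BAT. All 9 tested brown markers had higher fitted levels in MR mice, and 3 were called: Elovl3, a fatty acid elongase (log2 fold change 1.43, adjusted p = 0.0131), Dio2, which activates thyroid hormone (1.31, adjusted p = 0.0226), and the potassium channel gene Kcnk3 (0.85, adjusted p = 0.0414). The muscle markers overlapped between the diets, at 396 to 8265 CPM in MR BAT (median 3590) and 114 to 20977 CPM in control BAT (median 1841). The fitted levels were lower in MR mice for 10 of 10, with 0 called, although the median sum was higher. CON3112 (20977 CPM) and CON3114 (11599 CPM) were above every MR library, and CON3103, CON3107 and CON3115 (114 to 187 CPM) were below every MR library. BAT CON3106, which had the highest Abcd2 level, also had 3912 CPM of hepatocyte markers, while the MR libraries had 32.5 to 112 CPM. That library also had the highest white adipocyte marker sum in BAT (164 CPM). Its lymphocyte markers summed to 469 CPM, against 3.25 to 8.61 CPM in the MR libraries. Its macrophage markers summed to 240 CPM, against 49.8 to 84.5 CPM in the other control libraries. The part of these markers in the Abcd2 difference was not tested. Without CON3106 Abcd2 was still called, as the leave-one-out range above shows.

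In the other tissues Abcd2 did not pass the test. In IWAT it was at 325, 406 and 1022 CPM (lowest, median and highest) on the MR diet, against 480.0, 657 and 1545 CPM on the control diet, with a log2 fold change of -0.72 ± 0.56 (adjusted p = 0.921). Without the 3 IWAT libraries that stood apart the value was -0.45 ± 0.25. In liver Abcd2 was at 44.3, 55.1 and 81.3 CPM in MR mice, against 17.3, 25.5 and 62.1 CPM in control mice. All 6 MR livers were above the control mean, but CON3107, at 62.1 CPM, lay inside the MR range. The log2 fold change in liver was 0.75 ± 0.26 (adjusted p = 0.178). It was 1.02 with adjusted p = 0.0227 without CON3107, so 1 library decides this call. In gastrocnemius Abcd2 was at 27.8, 71.7 and 78.2 CPM in MR mice and 25.4, 63.5 and 78.1 CPM in control mice. The log2 fold change there was 0.37 ± 0.37, and 0.07 ± 0.30 without MR3101.

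Across tissues on the control diet, Abcd2 had its highest mean in IWAT and its lowest in liver. Its mean was 903 ± 496 CPM in IWAT, 144 ± 44.4 CPM in BAT, 55.7 ± 22.6 CPM in gastrocnemius and 30.7 ± 16.3 CPM in liver. IWAT exceeded BAT (log2 difference, BAT minus IWAT, -2.53 ± 0.40, adjusted p = 4.99e-06), and BAT exceeded gastrocnemius (1.17 ± 0.38, adjusted p = 0.0118). Liver and gastrocnemius were not called apart (liver minus gastrocnemius -0.55 ± 0.38, adjusted p = 0.213), but were with sample quality weights in limma voom (-0.75, adjusted p = 0.00241) and with library totals in place of TMM factors (-0.86, adjusted p = 0.0264). The high end in IWAT came from CON3106 and CON3115, at 1545 and 1524 CPM, and over 6 alternatives, which include leaving out the 4 libraries that stood apart, the log2 difference stayed between -2.65 and -1.63.

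Abcd3 encodes PMP70, an abundant peroxisomal membrane protein that imports dicarboxylic and branched-chain acyl-CoA and bile acid precursors. Its control means were 1442 ± 284 CPM in liver, 868 ± 276 CPM in BAT, 486 ± 203 CPM in IWAT and 211 ± 45.8 CPM in gastrocnemius. Liver exceeded BAT (BAT minus liver -1.22 ± 0.45, adjusted p = 0.0214), a call that library totals ended (-0.73, adjusted p = 0.0675). BAT and IWAT were not called apart (1.01 ± 0.44, adjusted p = 0.0747). That pair was called without the 4 libraries that stood apart (1.41 ± 0.29, adjusted p = 0.000222), with quality weights (1.49, adjusted p = 1.28e-05), with library totals (0.84, adjusted p = 0.0496) and with the control libraries alone (1.01, adjusted p = 0.0264), so the call depends on the settings. IWAT and gastrocnemius were not called apart (0.77 ± 0.44, adjusted p = 0.139), but were with library totals (1.20, adjusted p = 0.00279).

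No tissue called Abcd3 for diet. In BAT it was at 853, 1022 and 1254 CPM in MR mice and 516, 885 and 1197 CPM in control mice (log2 fold change 0.36 ± 0.22, adjusted p = 0.497). In liver it was at 1154, 1342 and 1896 CPM in MR mice and 936, 1519.5 and 1766 CPM in control mice (-0.21 ± 0.14, adjusted p = 0.536). The groups overlapped in both tissues. In IWAT the range was 474 to 1875 CPM in MR mice and 247 to 739.8 CPM in control mice, and MR3116 alone held the top value. The log2 fold change in IWAT was 0.94 ± 0.56, and 0.60 ± 0.38 without the 3 libraries that stood apart. In gastrocnemius, MR3101 had 794 CPM, against 148 to 172 CPM in the other 4 MR libraries and 166 to 267 CPM in the control libraries. The log2 fold change there was 0.88 ± 0.61, and it was -0.44 ± 0.24 without MR3101.

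The share of Abcd2 among the counts of both transporters was lower in MR BAT than in control BAT in every library. Abcd2 made up 5.03% of the summed Abcd2 and Abcd3 counts in MR BAT (3.19 to 7.47%) and 15.0% in control BAT (9.17 to 22.9%), with no overlap. In IWAT the share was 38.6% in MR mice (32.0 to 52.2%) and 63.6% in control mice (45.9 to 75.3%). The IWAT groups overlapped. In liver it was 4.08% in MR mice and 2.19% in control mice, and in gastrocnemius 22.8% in MR mice and 21.5% in control mice. These shares describe the same counts as above and were not tested.

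**Figure D1:**
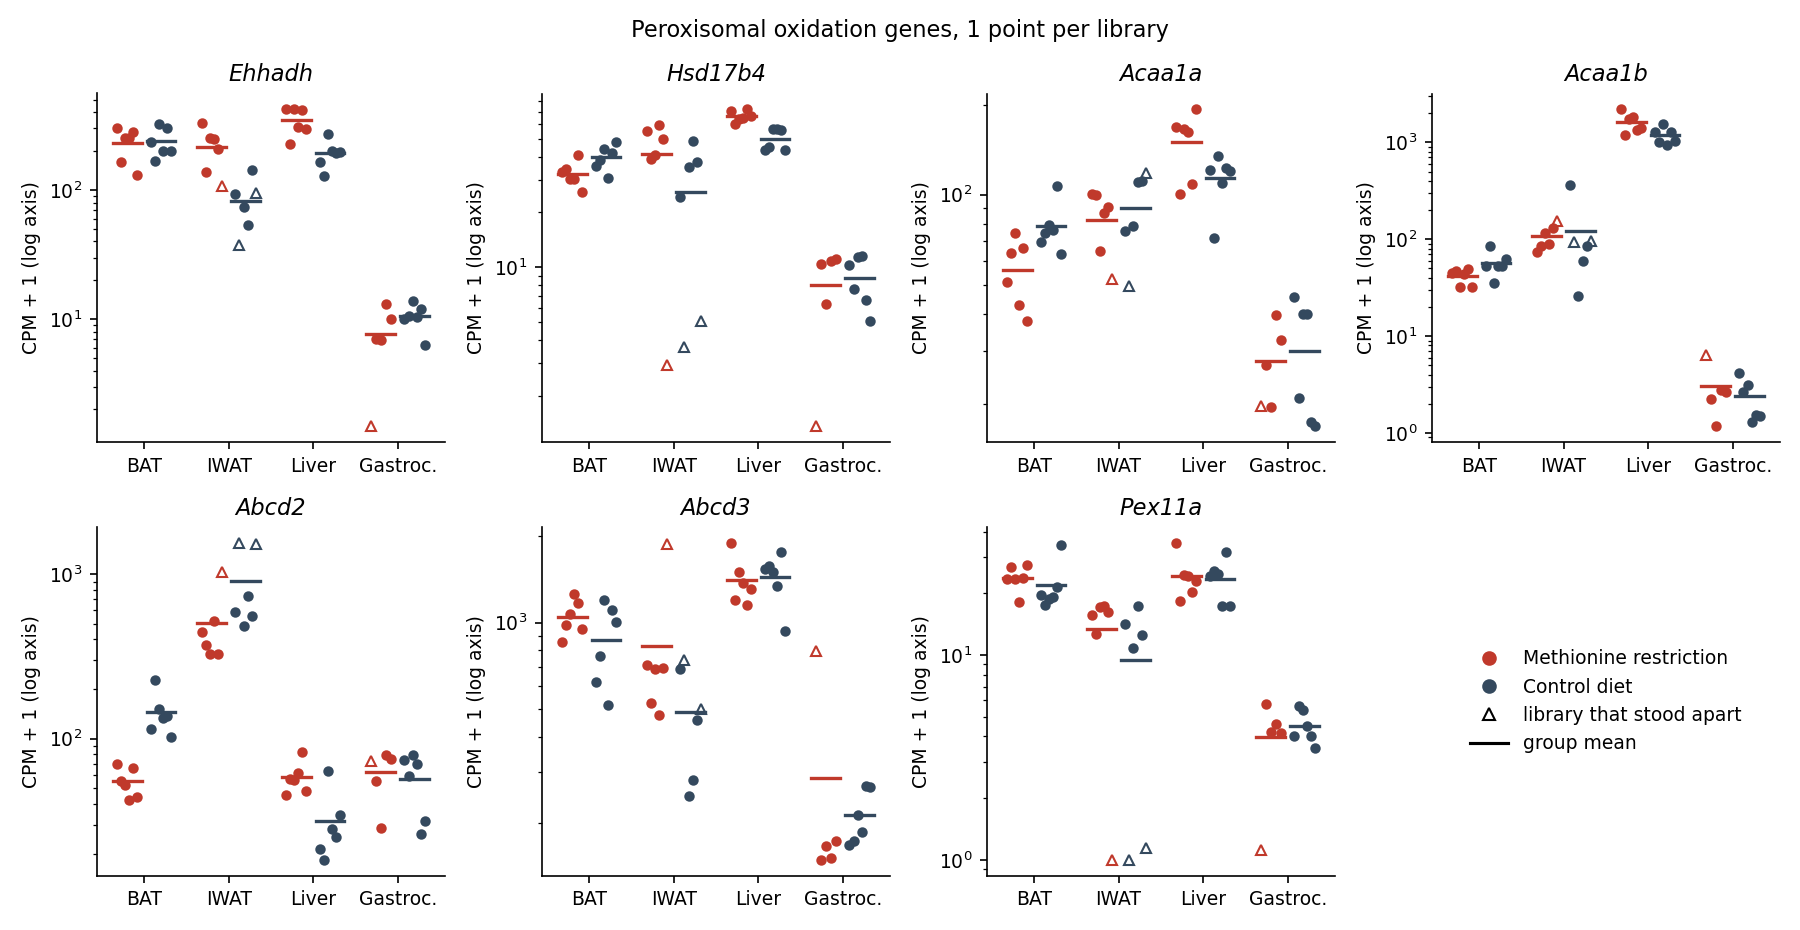
Level of each gene in CPM plus 1 on log axes, 1 point per library, by tissue, with the MR libraries left of the control libraries and lines at the group means. Triangles mark the 4 libraries that stood apart. In BAT all 6 Abcd2 points of MR mice (41.3 to 68.9 CPM) sit below all 6 control points (102 to 227 CPM), and the Pex11a triangles of IWAT lie between 0 and 0.141 CPM.

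Ehhadh, the L-bifunctional enzyme, which handles dicarboxylic and straight-chain substrates and is a classical PPAR alpha target in rodent liver, did not pass the test for diet in any tissue. In IWAT it was at 107, 227 and 329 CPM in MR mice, against 36.8, 82.0 and 141 CPM in control mice. All 6 MR libraries were above the control mean. The ranges, which were apart for 2.35% of tested genes in IWAT, overlapped for 7 of the 7 here, for Ehhadh through MR3102 (136 CPM) and MR3116 (107 CPM) below CON3114 (141 CPM). The means were 212 ± 81.6 CPM in MR mice and 81.3 ± 36.6 CPM in control mice (SD, n = 6 each). The log2 fold change was 1.46 ± 0.35 (edgeR, adjusted p = 0.156), in a tissue where 0.027% of the 11101 tested genes were called (0.00901% higher and 0.018% lower). The value was 1.46 ± 0.40 (adjusted p = 0.119) without the 3 IWAT libraries that stood apart. DESeq2 on the same counts gave 1.51 with adjusted p = 0.00323, and the joint fit of 47 libraries gave 1.48 with adjusted p = 0.00549.

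Brown adipocyte markers moved with Ehhadh in IWAT. Their sum was 1133 to 4379 CPM in MR IWAT and 141 to 1383 CPM in control IWAT. Without the 3 libraries that stood apart the brown marker sum was 2945 to 4379 CPM in MR IWAT and 172 to 1383 CPM in control IWAT. With all libraries 8 of the 10 markers were tested, and all 8 had higher fitted levels in MR mice, but 0 were called. Ucp1, the uncoupling protein of brown and beige fat, had a median of 1669.8 CPM in MR mice and 121 CPM in control mice (log2 fold change 3.15, adjusted p = 0.107). Zic1, a marker of classical brown fat, was at 0 in all 6 MR libraries and in 5 of 6 control libraries. The white adipocyte markers summed to 40.7 to 570 CPM in MR IWAT and 369.8 to 3487 CPM in control IWAT, and 6 of the 7 tested had lower fitted levels in MR mice, with 0 called. Without the same 3 libraries the white marker sums were 260 to 570 CPM in MR IWAT and 1158 to 3487 CPM in control IWAT. The lymphocyte markers summed to 10.3 to 1259 CPM in MR IWAT (median 512) and 13.1 to 2852 CPM in control IWAT (median 15.3). All 7 tested had higher fitted levels in MR mice, with 0 called. The high sums were those of MR3102 (1245 CPM), MR3104 (1259 CPM), MR3113 (970 CPM) and CON3107 (2852 CPM). MR3116 and MR3102 had the lowest Ehhadh and the lowest summed brown markers of the MR group, and the part of these markers in the Ehhadh difference was not tested.

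**Figure D2:**
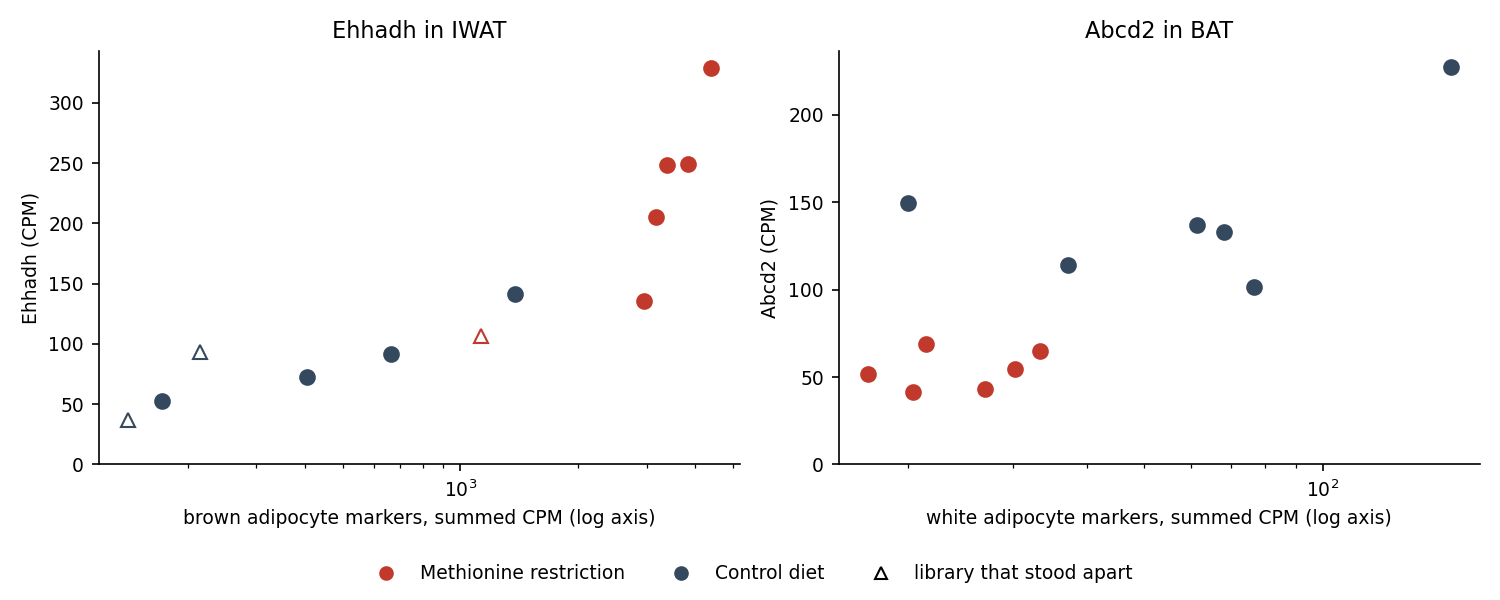
Left, Ehhadh in CPM against the summed CPM of 10 brown adipocyte markers in the 12 IWAT libraries. Right, Abcd2 in CPM against the summed CPM of 8 white adipocyte markers in the 12 BAT libraries. Each point is a library, red for MR and dark for control, with log horizontal axes. Brown marker sums in IWAT run from 1133 to 4379 CPM in MR mice and from 141 to 1383 CPM in control mice, and the Abcd2 levels of the diets do not overlap in BAT.

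In liver Ehhadh was at 224, 359 and 419.9 CPM in MR mice and 127, 193 and 271 CPM in control mice. All 6 MR livers were above the control mean, and MR3102 (224 CPM) alone lay below the top control liver. The means were 346 ± 82.5 CPM in MR mice and 191 ± 47.6 CPM in control mice (SD, n = 6 each), with a log2 fold change of 0.68 ± 0.18 (edgeR, adjusted p = 0.0679). In liver 2.26% of the 10969 tested genes were called (1.05% higher and 1.21% lower), and 0 of the 7 were among them. The Ehhadh call depended on the settings: adjusted p was 0.0177 with DESeq2, 0.0151 with library totals in place of TMM factors and 0.0274 without MR3102. In BAT Ehhadh was at 129, 252 and 303 CPM in MR mice and 167, 216 and 323 CPM in control mice, and the log2 fold change was 0.03 ± 0.22. In gastrocnemius it was at 0.481, 6.04 and 12.1 CPM in MR mice and 5.30, 9.53 and 12.8 CPM in control mice. The lowest value there was that of MR3101, the library poor in muscle markers. The Ehhadh log2 fold change in gastrocnemius was -0.53 ± 0.47, and -0.24 ± 0.25 without MR3101.

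On the control diet Ehhadh averaged 236 ± 61.8 CPM in BAT, 191 ± 47.6 CPM in liver, 81.3 ± 36.6 CPM in IWAT and 9.52 ± 2.48 CPM in gastrocnemius. BAT and liver did not differ beyond their spread (BAT minus liver -0.18 ± 0.33, adjusted p = 0.679, and 0.31 with library totals, so the sign depends on the scaling). Liver exceeded IWAT (IWAT minus liver -1.998 ± 0.339, adjusted p = 3.10e-06), and IWAT exceeded gastrocnemius (2.60 ± 0.35, adjusted p = 4.60e-08).

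Hsd17b4, the D-bifunctional enzyme, is needed for very long-chain and branched fatty acids and for bile acid side chains. In liver it was at 58.8, 64.8 and 71.3 CPM in MR mice and 42.3, 49.2 and 55.5 CPM in control mice. Every MR liver was above every control liver in CPM, as for 4.8% of tested genes in liver. The fitted log2 fold change was smaller, at 0.24 ± 0.11 (edgeR, adjusted p = 0.331) with the TMM factors of the fit. With library totals in their place it was 0.42 ± 0.11 (adjusted p = 0.0348). Library totals moved the median of all genes by 0.18 (log2) in liver, by -0.11 in IWAT and by -0.10 in BAT, so CPM ratios are to be read beside those shifts.

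In BAT Hsd17b4 was at 24.5, 30.6 and 40.0 CPM in MR mice and 29.6, 39.0 and 47.2 CPM in control mice (log2 fold change -0.22 ± 0.15). In IWAT it was at 1.93, 44.3 and 58.2 CPM in MR mice and 2.68, 28.6 and 47.9 CPM in control mice (0.85 ± 0.68, and 0.58 ± 0.26 without the 3 libraries that stood apart). Those 3 libraries had the lowest levels in IWAT, with 1.93 CPM in MR3116, 2.68 CPM in CON3106 and 4.09 CPM in CON3115. In gastrocnemius the range was 0.360 to 10.1 CPM in MR mice and 4.12 to 10.5 CPM in control mice. None of these differences was called.

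The control means of Hsd17b4 were 49.0 ± 6.78 CPM in liver, 38.7 ± 6.26 CPM in BAT, 24.7 ± 18.3 CPM in IWAT and 7.75 ± 2.68 CPM in gastrocnemius. The neighbours liver and BAT (BAT minus liver -0.84 ± 0.44, adjusted p = 0.111) and BAT and IWAT (1.07 ± 0.44, adjusted p = 0.0556) were not called apart, and IWAT exceeded gastrocnemius (1.06 ± 0.44, adjusted p = 0.0427), a call that the animal as a block ended (0.89, adjusted p = 0.127). Both BAT comparisons passed without the 4 libraries that stood apart, with log2 differences of -0.86 against liver (adjusted p = 4.33e-05) and 0.57 against IWAT (adjusted p = 0.0191), and both passed with quality weights (-0.87 and 0.58). BAT against IWAT also passed with the control libraries alone (1.12, adjusted p = 0.0231). Ehhadh held 85.5% of the summed counts of both enzymes in control BAT, 79.2% in control liver and 55.6% in control gastrocnemius.

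The thiolases were closer to each other in fat than in liver. Acaa1b had a control mean of 1182 ± 232 CPM in liver, 119 ± 122 CPM in IWAT, 56.3 ± 16.6 CPM in BAT and 1.38 ± 1.13 CPM in gastrocnemius. Acaa1a had 112 ± 22.0 CPM in liver, 89.5 ± 26.8 CPM in IWAT, 77.3 ± 15.0 CPM in BAT and 29.1 ± 13.1 CPM in gastrocnemius. Averaged over libraries, Acaa1b made up 91.3% of thiolase counts in control liver, 49.3% in IWAT, 41.9% in BAT and 4.44% in gastrocnemius. Per the labels' protocols only fragments mapping uniquely to RefSeq genes were kept, and the annotated tags of the copies differ. The labels do not say which tags were assigned to each copy, so the split is uncertain to that extent.

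For both thiolases IWAT and BAT did not differ beyond their spread (BAT minus IWAT 0.06 ± 0.22 for Acaa1a and -0.90 ± 0.50 for Acaa1b), and liver exceeded IWAT (IWAT minus liver -1.11 ± 0.22 for Acaa1a and -4.00 ± 0.56 for Acaa1b). With library totals the sign of the Acaa1a difference between BAT and IWAT turned to -0.21, and Acaa1a was no longer called in liver against IWAT (-0.32, adjusted p = 0.279). IWAT CON3103 had 362 CPM of Acaa1b and 11591 CPM of hepatocyte markers, against 25.0 to 95.1 CPM of Acaa1b in the other control libraries of IWAT. IWAT MR3113 had 8618 CPM of hepatocyte markers with 131 CPM of Acaa1b, and CON3114 had 3819 CPM with 83.7 CPM. The part of those markers in the Acaa1b levels was not tested.

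Neither thiolase was called for diet. In liver Acaa1b was at 1189.7, 1566 and 2198 CPM in MR mice and 943.9, 1151 and 1557 CPM in control mice (log2 fold change 0.28 ± 0.15, adjusted p = 0.416), with all 6 MR livers above the control mean. Acaa1a in liver was at 99.3, 162 and 192 CPM in MR mice and 70.7, 119 and 134 CPM in control mice (0.22 ± 0.17). In BAT all 6 MR libraries were below the control mean for both genes. Acaa1a was at 36.8, 56.6 and 73.5 CPM in MR BAT and 62.5, 74.2 and 106 CPM in control BAT (-0.39 ± 0.17, adjusted p = 0.317). Acaa1b was at 30.8, 43.2 and 48.7 CPM in MR BAT and 34.7, 52.3 and 85.2 CPM in control BAT (-0.37 ± 0.18, adjusted p = 0.388).

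In IWAT both log2 fold changes were near 0, at -0.05 ± 0.24 for Acaa1a and -0.05 ± 0.57 for Acaa1b. The value for Acaa1b was 0.64 without CON3103. In gastrocnemius Acaa1b was at 0.169, 1.67 and 5.41 CPM in MR mice and 0.293, 1.11 and 3.14 CPM in control mice, some of them under the 3-count floor. Acaa1a in gastrocnemius was at 18.5, 26.0 and 38.7 CPM in MR mice and 15.8, 29.4 and 44.4 CPM in control mice.

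**Figure D3:**
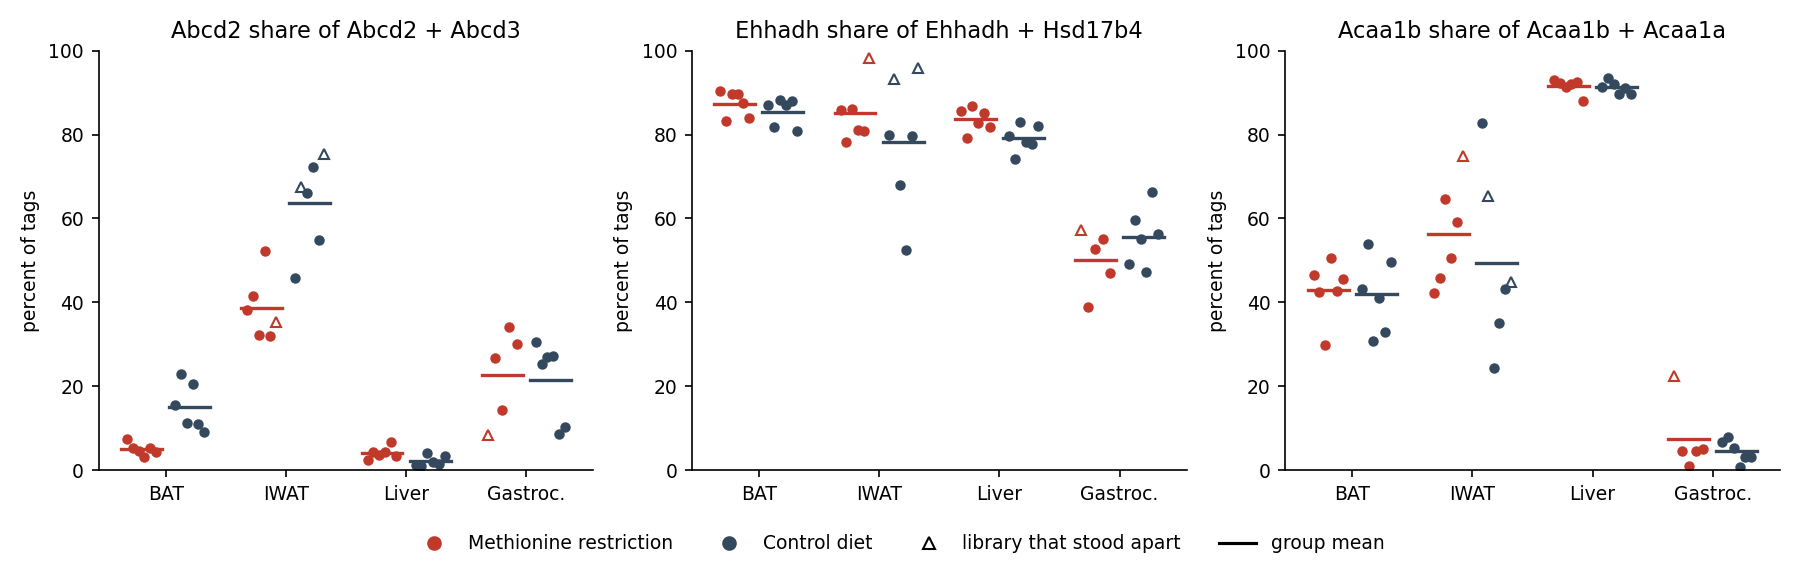
Share in percent of Abcd2 in the summed counts of Abcd2 and Abcd3 (left), of Ehhadh in Ehhadh and Hsd17b4 (middle) and of Acaa1b in Acaa1b and Acaa1a (right), 1 point per library, MR left of control in each tissue, with lines at the group means. Acaa1b holds 91.5% of thiolase counts in MR liver and 91.3% in control liver, and the Abcd2 shares of the diets do not overlap in BAT.

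Pex11a, the division factor, had the lowest control mean of the 7 genes in IWAT, liver and BAT. The means were 22.5 ± 5.46 CPM in liver, 20.8 ± 6.28 CPM in BAT, 8.48 ± 6.86 CPM in IWAT and 3.52 ± 0.829 CPM in gastrocnemius. BAT exceeded IWAT (1.71 ± 0.58, adjusted p = 0.0203), a call that library totals ended (1.30, adjusted p = 0.0972). Liver and BAT (BAT minus liver -0.60 ± 0.56, adjusted p = 0.402) and IWAT and gastrocnemius (0.64 ± 0.58, adjusted p = 0.367) were not called apart. Pex11a was at 0 CPM in IWAT MR3116 and CON3106 and at 0.141 CPM in CON3115, which are the 3 IWAT libraries that stood apart. It was at 11.7 to 16.3 CPM in the other MR libraries and 9.84 to 16.4 CPM in the other control libraries of IWAT. Without the 4 libraries that stood apart IWAT exceeded gastrocnemius (1.21 ± 0.22, adjusted p = 1.58e-05) and liver exceeded BAT (BAT minus liver -0.62 ± 0.19, adjusted p = 0.00512). Quality weights called the same pairs (1.08, adjusted p = 0.0113, and -0.65, adjusted p = 0.00760).

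Pex11a was not called for diet in any tissue. In BAT it was at 17.2, 22.6 and 26.4 CPM in MR mice and 16.5, 18.4 and 33.3 CPM in control mice (log2 fold change 0.23 ± 0.20). In liver it was at 17.2, 22.5 and 34.2 CPM in MR mice and 16.3, 23.6 and 30.7 CPM in control mice (-0.13 ± 0.16). In gastrocnemius it was at 0.12, 3.22 and 4.79 CPM in MR mice and 2.52, 3.28 and 4.64 CPM in control mice (-0.21 ± 0.48). For IWAT, whose levels are given above, the log2 fold change was 0.66 ± 1.04, and 0.33 ± 0.24 without the 3 libraries that stood apart.

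In gastrocnemius 0 of the 7 genes and 0 of 11225 tested genes (0%) were called by edgeR, with 0 of the 7 and 709 of all genes (6.32%) at an unadjusted p under 0.05. The CPM ranges of the diets were apart for 0 of the 7 and for 0.294% of all tested genes. Leaving out MR3101 turned the sign of the log2 fold change for 5 of the 7, to 0.17 for Hsd17b4, -0.02 for Acaa1a, -0.18 for Acaa1b, -0.44 for Abcd3 and 0.07 for Pex11a. The median log2 fold change of the 7 genes was -0.22 in BAT, 0.66 in IWAT, 0.24 in liver and 0.02 in gastrocnemius. Over all tested genes it was 0.00, -0.02, 0.01 and -0.04 in the same order. In IWAT 4 of the 7 values were positive and 3 negative, and the median was the Pex11a value itself (0.66 ± 1.04). Without the 3 IWAT libraries that stood apart the Pex11a value was 0.33 ± 0.24.

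**Figure D4:**
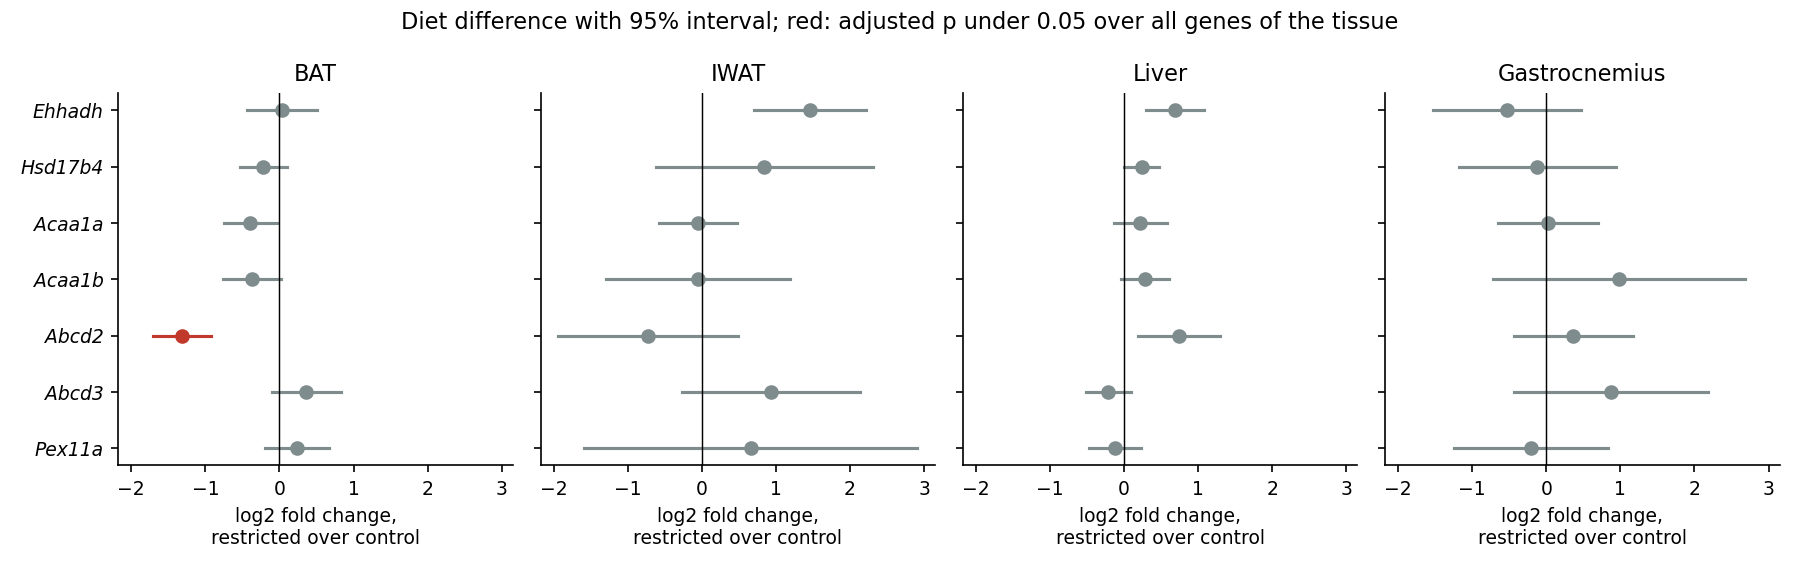
Log2 fold change of MR over control with its 95% interval for each gene in each tissue, from the edgeR fit of that tissue, with the interval taken from the t distribution at the degrees of freedom of the test. Red marks an adjusted p under 0.05 over all genes of the tissue. Abcd2 in BAT (-1.31) is the single red point.

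Whether the diet effect differed between tissues was tested in the joint fit of 47 libraries. Over the 4 tissues 0 of the 7 genes had a called interaction, beside 0.524% of 13541 genes. The smallest adjusted p-values were 0.0799 for Ehhadh and 0.114 for Abcd2. Among the 42 pairwise differences of diet effects, 1 was called. The Ehhadh effect in IWAT minus that in gastrocnemius was 2.06 ± 0.49 (log2, adjusted p = 0.0404), in a pair of tissues where 0.436% of genes were called. In the other pairs 0 of the 7 were called, beside 0.0517% of genes for BAT and IWAT, 0.103% for BAT and liver, 0% for BAT and gastrocnemius, 0.591% for IWAT and liver and 0.0295% for liver and gastrocnemius. With the animal as a block, which uses that the same mice gave all tissues, the Ehhadh difference was 1.99 ± 0.50 with adjusted p = 0.0977. The call was also lost with quality weights (1.59, adjusted p = 0.0731), with library totals (1.88, adjusted p = 0.0859), with no filter on low counts (1.98, adjusted p = 0.0841) and without gastrocnemius MR3101 (1.71, adjusted p = 0.0669). Without all 4 libraries that stood apart it was 1.82 ± 0.43 and still called (adjusted p = 0.0230).

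The Abcd2 effect in BAT minus that in liver was -2.02 ± 0.54 (adjusted p = 0.198) with all libraries. Without the 4 libraries that stood apart it was -2.01 ± 0.36 (adjusted p = 0.00146), and both Abcd2 (adjusted p = 0.00480) and Ehhadh (adjusted p = 0.0362) then had a called interaction. In the fit of all libraries Abcd2 had a negative fitted effect in BAT (-1.29) and a positive one in liver (0.73). With all libraries kept the difference was called with quality weights (-1.94, adjusted p = 9.23e-05) and with library totals (-2.31, adjusted p = 0.0139), so the call depends on the libraries, the weights and the scaling. Quality weights also called the Abcd2 effect in IWAT minus that in liver (-1.40, adjusted p = 0.0171).

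Between tissues on the control diet, 32 of the 42 pairs of a gene and 2 tissues were called. BAT and gastrocnemius differed for 7 of the 7 genes, beside 40.9% of all genes, and IWAT and liver for 7 of the 7, beside 49.7%. Liver and gastrocnemius differed for 6 of the 7 (56.8% of all genes), IWAT and gastrocnemius for 5 (52.5%), BAT and liver for 4 (47.9%) and BAT and IWAT for 3 (33.4%). Library totals in place of TMM factors moved the median log2 difference of all genes by 0.232 to 0.815 between tissues, and the count was then 30 of 42. Gastrocnemius had the lowest mean of the 4 tissues for 6 of the 7 genes. Abcd2 was the exception, with the lowest mean in liver.

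On the MR diet 30 of the 42 pairs of a gene and 2 tissues were called. The alternatives were not run on the MR-diet levels, so how far these calls depend on the scaling was not tested. On the control diet library totals moved the median BAT minus liver difference of all genes by 0.509. BAT and IWAT differed for 1 of the 7 genes (25.5% of all genes), which was Abcd2 (BAT minus IWAT -3.09 ± 0.41, adjusted p = 8.66e-07). Ehhadh averaged 229.6 ± 68.3 CPM in BAT and 212 ± 81.6 CPM in IWAT of MR mice, and these did not differ beyond their spread (0.38 ± 0.33, adjusted p = 0.427). In MR liver Ehhadh, at 346 ± 82.5 CPM, exceeded that of MR BAT (BAT minus liver -0.81 ± 0.33, adjusted p = 0.0389). Abcd2 averaged 54.0 CPM in BAT, 57.3 CPM in liver and 61.2 CPM in gastrocnemius of MR mice, and none of these 3 pairs was called (adjusted p from 0.384 to 0.800). BAT and gastrocnemius differed for 6 of the 7 genes (47.4% of all genes), Abcd2 being the exception, IWAT and gastrocnemius for 6 (40.3%), liver and gastrocnemius for 6 (56.8%), IWAT and liver for 7 (46.7%) and BAT and liver for 4 (47.8%). Whether the orders differ between the diets is what the differences of diet effects above test.

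The rest of the pathway was described by 3 lists. Other peroxisomal oxidation genes (24 symbols, 23 matched) had 0 of 21 tested members called in BAT, 0 of 20 in IWAT, 1 of 21 in liver and 0 of 18 in gastrocnemius. Over all tested genes 1.11% were called in BAT, 0.027% in IWAT, 2.26% in liver and 0% in gastrocnemius. These shares stand beside the counts of all 3 lists. The call in liver was Nudt7, a peroxisomal CoA diphosphatase, at 775 ± 135 CPM in MR mice and 982 ± 150 CPM in control mice (-0.52 ± 0.12, adjusted p = 0.0310). Crot, which makes acylcarnitines for export from the peroxisome, was at 601 ± 108 CPM in MR liver and 371 ± 67.8 CPM in control liver (0.52 ± 0.15, adjusted p = 0.102). Hacl1, which acts in the alpha-oxidation of branched chains, was at 439 ± 67.2 CPM in MR liver and 282 ± 55.4 CPM in control liver (adjusted p = 0.185).

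In IWAT 18 of the 20 tested members of that list had positive fitted values, with a median of 0.60. Over all tested genes in IWAT 48.5% were positive, with a median of -0.02. Crat, the carnitine acetyltransferase, was at 795 ± 161 CPM in MR IWAT and 336 ± 152 CPM in control IWAT (1.36 ± 0.30, adjusted p = 0.144). Slc27a2, a very long-chain acyl-CoA synthetase, was at 61.1 ± 17.7 CPM in MR IWAT and 13.0 ± 13.4 CPM in control IWAT (2.41 ± 0.65, adjusted p = 0.181). None of them was called, and the brown marker sums given above differed between the same libraries.

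Peroxisome assembly and division genes (20 symbols, 19 matched) had 0 of 19 called in each of the 4 tissues. The share of all tested genes called was 1.11% in BAT, 0.027% in IWAT, 2.26% in liver and 0% in gastrocnemius. The median log2 fold change of the list was -0.02 in BAT, 0.25 in IWAT, -0.07 in liver and 0.21 in gastrocnemius. At an unadjusted p under 0.05, 1 of its members was higher and 1 lower in BAT, 2 were lower in IWAT, 4 were lower in liver and 1 was higher in gastrocnemius. Over all tested genes the share at that threshold was 13.6% in BAT, 8.78% in IWAT, 14.5% in liver and 6.32% in gastrocnemius. The leading member in IWAT was Pxmp2, a channel protein of the peroxisomal membrane, at 30.2 ± 10.6 CPM in MR mice and 58.0 ± 14.4 CPM in control mice (adjusted p = 0.230).

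PPAR alpha and its other targets (25 symbols) had 3 of 23 tested members called in liver, 2 higher and 1 lower, beside 2.26% of all tested genes (1.05% higher and 1.21% lower). Cyp4a14, an omega-hydroxylase that makes dicarboxylic precursors, rose to 142 ± 31.9 CPM in MR liver, against 17.3 ± 6.71 CPM in control liver (2.88 ± 0.24, adjusted p = 1.32e-05). Acot1, an acyl-CoA thioesterase, rose to 3.66 ± 1.65 CPM in MR liver, against 1.25 ± 0.392 CPM in control liver (1.39 ± 0.33, adjusted p = 0.0401). Cyp4a12a, a hydroxylase of arachidonic acid, fell to 82.8 ± 24.5 CPM in MR liver, against 131 ± 23.0 CPM in control liver (-0.86 ± 0.17, adjusted p = 0.0123). The list median in liver was 0.06, beside 0.01 over all genes.

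In BAT 0 of 17 tested members of this list were called, with 7 positive and 10 negative fitted values. The member with the smallest p was Ppargc1a, which is also on the brown adipocyte marker list. It was at 68.0 ± 8.36 CPM in MR mice and 42.4 ± 9.54 CPM in control mice (0.77 ± 0.18, adjusted p = 0.0512). Ppara itself, the receptor gene, came next, at 222 ± 63.4 CPM in MR mice and 398 ± 83.2 CPM in control mice (-0.77 ± 0.23, adjusted p = 0.157). In IWAT 0 of 19 were called, with 10 higher and 1 lower at an unadjusted p under 0.05 and a median of 1.35, beside 8.78% of all genes at that threshold in either direction. The brown adipocyte markers had a median of 2.23 in the same libraries, with 8 of the 8 tested at positive fitted values, and their part in these values was not tested. The mitochondrial carnitine carrier Slc25a20 led there, at 531 ± 75.4 CPM in MR mice and 178 ± 65.0 CPM in control mice (1.72 ± 0.33, adjusted p = 0.0887). In gastrocnemius 0 of 17 were called. Pdk4, a kinase that restrains pyruvate dehydrogenase, was at 365 ± 203 CPM in MR muscle and 689 ± 164 CPM in control muscle (adjusted p = 0.764).

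**Figure D5:**
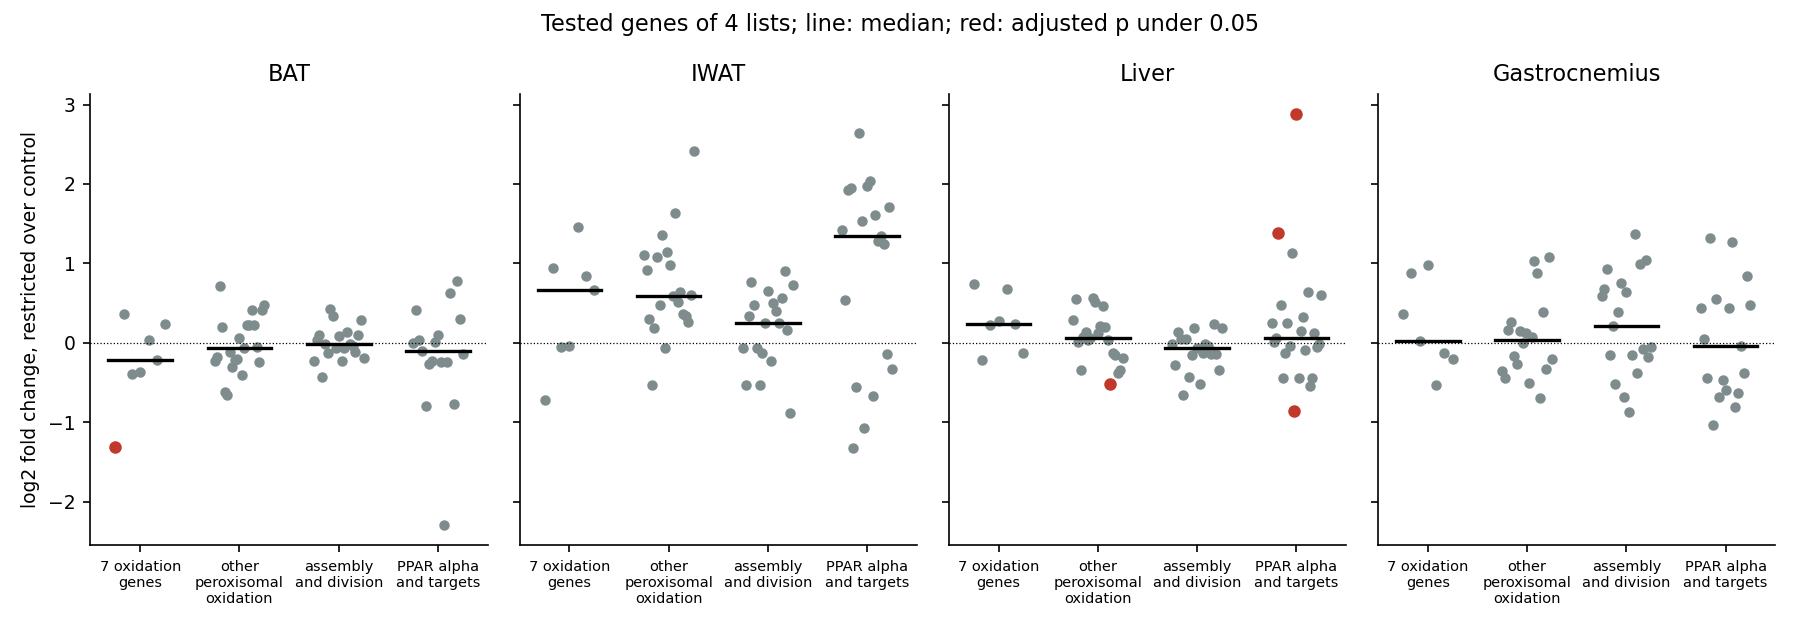
Log2 fold change of MR over control for each tested gene of 4 lists in each tissue, with a line at the median of the list and red points for adjusted p under 0.05. Liver holds the red points of the PPAR alpha list, with Cyp4a14 highest at 2.88, and BAT holds that of Abcd2 at -1.31. In IWAT the list medians are 0.66, 0.60, 0.25 and 1.35, and the first of them is the Pex11a value (0.66 ± 1.04).

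The genes with the most similar pattern over the 47 libraries were ranked by Pearson's r of log2 CPM, as a description of libraries that share tissue, animals and depth. Abcd2 was nearest to Ifngr1 (r = 0.929), Lipf (0.926) and Opn3 (0.922), and its r with the nearest of the other 6 genes, Acaa1b, was 0.0191. The remaining 6 each had an r of 0.813 or more with another of the set. Hsd17b4 and Pex11a had 0.923 with each other, and Acaa1a and Acaa1b 0.919. Ehhadh was nearest to Idh1 (0.968), Lipa (0.959) and Arsa (0.954), and Hsd17b4 to Ak3 (0.977), Fam134a (0.963) and Pcyt2 (0.960). Acaa1a was nearest to Cat (0.947), Casp6 (0.939) and Pgrmc1 (0.936), and Acaa1b to Dpyd (0.979), Mosc1 (0.974) and Rbp4 (0.969). Abcd3 was nearest to Maob (0.967), Cryz (0.944) and Pafah2 (0.933), and Pex11a to Atf5 (0.975), Ptms (0.974) and Fam136a (0.970).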

How the data were processed

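Tag counts were measured in 47 libraries of 4 tissues from 12 mice. Per the labels' protocols, total RNA was made into SOLiD SAGE libraries and fragments mapping uniquely to mouse RefSeq genes were kept. The deposited count tables hold whole-number counts per gene symbol and library, with no normalization, and these raw counts were used. The submitters' processing notes name the builds mm10 and GRCm38.p1 and the tool DESeq, and no source used here names an aligner or a counter. The authors' DESeq-normalized tables were not used. The 4 tables share 26583 symbols, which entered the joint fit.

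Groups came from the sample titles, and tissues were taken from the labels. In each tissue genes were kept with filterByExpr (minimum count of 10), scaled with TMM factors and compared between diets in edgeR 4.0.16 (quasi-likelihood F test, R 4.3.3). P-values were adjusted over all kept genes by the Benjamini-Hochberg method and called under 0.05. Differences of diet effects and between tissues came from 1 edgeR fit of 47 libraries with a mean per tissue and diet, and their p-values were adjusted over all genes within each contrast. SEs were worked back from the log2 fold change and F. CPM is the count scaled to a library total of 1000000, given as mean ± SD over animals. Depth ran from 4887004 to 13117537 counts per library. Mice are the replicates, and the labels do not say whether they shared cages or litters. The fit was checked on simulated counts.

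Alternatives were DESeq2 1.42.0, limma 3.58.1, upper-quartile factors, library totals, other filters, the joint fit, each library left out, the libraries that stood apart left out, the control libraries alone and the animal as a block. Leaving out each library of the joint fit was added after the data were seen. The same numbers mark the same animals in all tissues, so the numbers pair the libraries. The mean correlation of deviations from the group means between tissues of 1 animal ran from -0.0759 to 0.0627 over the 6 pairs of tissues. Between different animals of the same diet it ran from -0.0119 to 0.0613. For IWAT and gastrocnemius it was -0.0759 within animals and 0.0613 between them, so these correlations do not show the pairing.

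All 7 genes are named in every tissue. From each pathway list up to 4 members with the smallest p in a tissue could be named, and the 3 genes with the highest Pearson correlation for each gene, predicted genes passed over. The genes, lists and tests were chosen with earlier results of these data known. Eci3 and Pex2 were not matched by symbol. Sequences came from GENCODE vM1 transcripts and gene positions from RefSeq on GRCm38. Marker lists for adipocytes in general, blood and macrophages, like the others, were summed per library. Summed over general adipocyte markers, IWAT held 37385 to 69109 CPM in MR mice and 38336 to 92375 CPM in control mice, and BAT 25525 to 40943 CPM in MR mice and 23082 to 34198 CPM in control mice. Blood markers reached at most 126 CPM and macrophage markers at most 1078 CPM in any library. One result for a gene of the peroxisome assembly and division list is not reported here.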

Additional observations from a re-analysis of the deposited data

Results flagged for a closer look

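In 56 groups of 5 or 6 libraries, 10 had a library whose level lay far from the rest by Dixon's test, which chance gives in about 1 in 20 groups. IWAT MR3116, which stood apart from its tissue, accounts for 4 of them. It had 1.93 CPM of Hsd17b4 (next 37.6), 1022 CPM of Abcd2 (next 518), 1875 CPM of Abcd3 (next 712.5) and 0 CPM of Pex11a (next 11.7). Gastrocnemius MR3101, the library with few muscle markers, had 794 CPM of Abcd3 (next 172).

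IWAT CON3103, with 11591 CPM of hepatocyte markers, had 362 CPM of Acaa1b (next 95.1). IWAT MR3113, with 8618 CPM of those markers, had 131 CPM of Acaa1b and was not flagged. Abcd2 reached 62.1 CPM in liver CON3107 (next 33.3), and without that library Abcd2 passed the diet test in liver (adjusted p = 0.0227). Pex11a was at 34.2 CPM in liver MR3101 (next 23.5) and at 33.3 CPM in BAT CON3115 (next 20.6). Acaa1a was at 106 CPM in BAT CON3114 (next 78.2).

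The diet effect on Ehhadh in IWAT exceeded that in gastrocnemius by 2.06 (log2) in the test of the difference itself (adjusted p = 0.0404). It was not called with the animal as a block (adjusted p = 0.0977), with quality weights (0.0731), with library totals (0.0859) or with no filter (0.0841). In both tissues at least 1 library that stood apart enters this difference, and its part was not tested beyond the values without those libraries given above.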

How the results depend on the processing

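The precision is limited by 6 or fewer animals per diet and, in gastrocnemius, by counts of Acaa1b near the floor. Over single-tissue alternatives the number of the 7 genes called moved to 0 in BAT under the joint fit, to 1 in IWAT with DESeq2 and under the joint fit, and in liver to 1 with DESeq2 and 2 with library totals. The number with a called interaction moved to 1 with voom quality weights or library totals and to 2 without the 4 libraries that stood apart. The number of called differences of diet effects moved to 0 without a filter, was 1 with library totals (Abcd2 in BAT minus liver in place of Ehhadh) and moved to 2 with quality weights or without those 4 libraries. With the animal as a replicate block it was 0, and the block also called Hsd17b4 between BAT and IWAT (1.31, adjusted p = 0.0423) and ended its call between IWAT and gastrocnemius (0.89, adjusted p = 0.127). It changed no other call. The count of tissue pairs called on the control diet stayed between 30 and 38.

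With each library left out in turn, the count called was 1 to 1 in BAT, 0 to 0 in IWAT and gastrocnemius, and 0 to 1 in liver (1 without MR3102 or without CON3107). The interaction count ran from 0 to 2, and the count of differences from 0 to 3. The Ehhadh difference between IWAT and gastrocnemius ran from 1.71 to 2.30 with adjusted p from 0.00741 to 0.112, and was not called in 17 of 47 cases. These were BAT MR3102, IWAT MR3101, MR3104, MR3109, MR3113, CON3106, CON3107, CON3112 and CON3115, liver CON3112 and CON3115, and gastrocnemius MR3101, MR3102, CON3103, CON3107, CON3114 and CON3115. Leave-one-out log2 fold changes that turned sign ran from -0.0642 to 0.173 for Ehhadh in BAT, -0.164 to 0.0806 for Acaa1a and -0.44 to 0.64 for Acaa1b in IWAT. In gastrocnemius they ran from -0.0896 to 0.179 for Acaa1a, -0.17 to 1.44 for Acaa1b, -0.44 to 1.09 for Abcd3, -0.28 to 0.17 for Hsd17b4 and -0.458 to 0.0735 for Pex11a.

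Other signs that turned, none of them of a called value, were as follows, and the cause was not tested. Library totals gave -0.0431 for Ehhadh in BAT, 0.0457 for Pex11a in liver, -0.12 for Acaa1a in gastrocnemius, -0.21 for Acaa1a in BAT over IWAT and 0.31 for Ehhadh in BAT over liver on the control diet, and -0.0162 for the Acaa1a effect in IWAT minus gastrocnemius. For Acaa1b in IWAT, DESeq2 gave 0.0210 and limma voom 0.364. Without the 3 IWAT libraries Acaa1a there was 0.0188. Acaa1a in gastrocnemius was -0.0197 with no filter and -0.0339 in the joint fit, and no filter gave -0.000865 for its BAT over IWAT level and -0.0830 for its effect in IWAT minus gastrocnemius. For differences of diet effects, the block gave 0.11 for Abcd3 in BAT minus gastrocnemius and 0.0894 for Acaa1b in IWAT minus liver. Quality weights gave 0.503 and 0.0599 for those, 0.17 and 0.11 for Acaa1b in IWAT and in liver minus gastrocnemius, and -0.12 for Pex11a in liver minus gastrocnemius. Without the 4 libraries Acaa1b was 0.0418 in BAT minus IWAT and 0.49 in liver minus gastrocnemius, Abcd3 was 0.86 in BAT and 0.24 in liver minus gastrocnemius, and Pex11a was -0.18 in liver minus gastrocnemius.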
